A study of Arabidopsis thaliana with 4 samples.

Results

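The genotype difference in the high-light response is the log2 ratio of high light to untreated in erf6-1 minus the same log2 ratio in the wild type, taken for each probe set of an Arabidopsis thaliana expression array. A value of 1 says that the ratio in erf6-1 was 2-fold the ratio in the wild type, and a value of -1 that it was 2-fold smaller. The 4 groups were erf6-1 plants after high light, erf6-1 plants without treatment, Col-0 wild-type plants after high light and Col-0 plants without treatment. erf6-1 is a mutant line in the Col-0 background, named for ERF6, an ethylene response transcription factor. ERF6 was not analysed here. The labels do not say what kind of allele it carries. The plants were seedlings 3 weeks old, and high light was 2000 µmol m-2 s-1 for 2 h. Each group had 1 array, so no value had a replicate, a standard error or a test, and the values describe these 4 arrays. A probe set was measured where its signal was 250 or more on all 4 arrays, which held for 6709 of 22746 probe sets (29.5%). Of these, 3378 probe sets were named through 1 gene each and covered 3373 genes, and the other 3331 were counted without a name.

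A leaf under light beyond what photosynthesis can use forms reactive oxygen species in its chloroplasts. The plant answers by making chaperones, antioxidant and detoxifying enzymes and by lowering transcripts for light-harvesting proteins. Ethylene response factors are DNA-binding proteins of the AP2/ERF family, and ERF6 is known for binding the GCC box in promoters of defence genes and for a part in oxidative stress responses. The stated purpose of the series was to find genes that ERF6 regulates under oxidative stress and high light, and the difference between the 2 responses is the comparison in which the genotypes' reactions to light are set against each other.

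The arrays had been scaled to nearly the same trimmed mean, but their middle signals were apart. Median signals in erf6-1 were 206.6 after high light and 320.6 untreated, and in the wild type 208 after high light and 279 untreated. The share of probe sets at 250 or more was 44.9%, 56.4%, 44.8% and 53.3% in the same order. Leaf transcripts were bright on all 4 arrays, as in RCA, the activase of Rubisco, at 32887 in high light and 40655 untreated in erf6-1, against 37117 in high light and 58919 untreated in the wild type. PYK10, a β-glucosidase abundant in roots, had 18297 in high light and 21338 untreated in erf6-1, against 15881 in high light and 28679 untreated in the wild type. It was the 1 measured gene of 4 root markers, and 3 of 7 shoot markers were measured. The root markers EXPA7 and EXPA18 were under 250 on at least 1 array. EXPA7 had 159.8 in high light and 852 untreated in erf6-1, against 331 in high light and 625.5 untreated in the wild type. EXPA18 had 101.8 in high light and 442 untreated in erf6-1, against 403.5 in high light and 265.5 untreated in the wild type. Their differences of -1.50 and -2.72 were of the opposite sign to that of PYK10, at 0.63. No seed or embryo marker had a named probe set. In seedlings, fewer cells of a type and less RNA per cell cannot be told apart.

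Across the 6709 probe sets the median difference of responses was 0.07, with quartiles at -0.43 and 0.52 and extremes at -2.90 and 4.68, both of probe sets without a name. The response was at least 2-fold higher in erf6-1 for 629 probe sets (9.38%) and at least 2-fold lower for 577 (8.60%), so higher values made up 52.2% of the 1206 past 2-fold (18.0%). This split depended on the scaling. With arrays set to equal medians the median difference over all probe sets was 0.28, and 982 probe sets were higher and 371 lower, so that higher values made up 72.6%. Among named probe sets, 334 were higher (9.89%) and 320 lower (9.47%). The responses themselves went together, with a Pearson correlation of 0.61 across probe sets, which are not independent and carry no test.

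**Figure D1:**
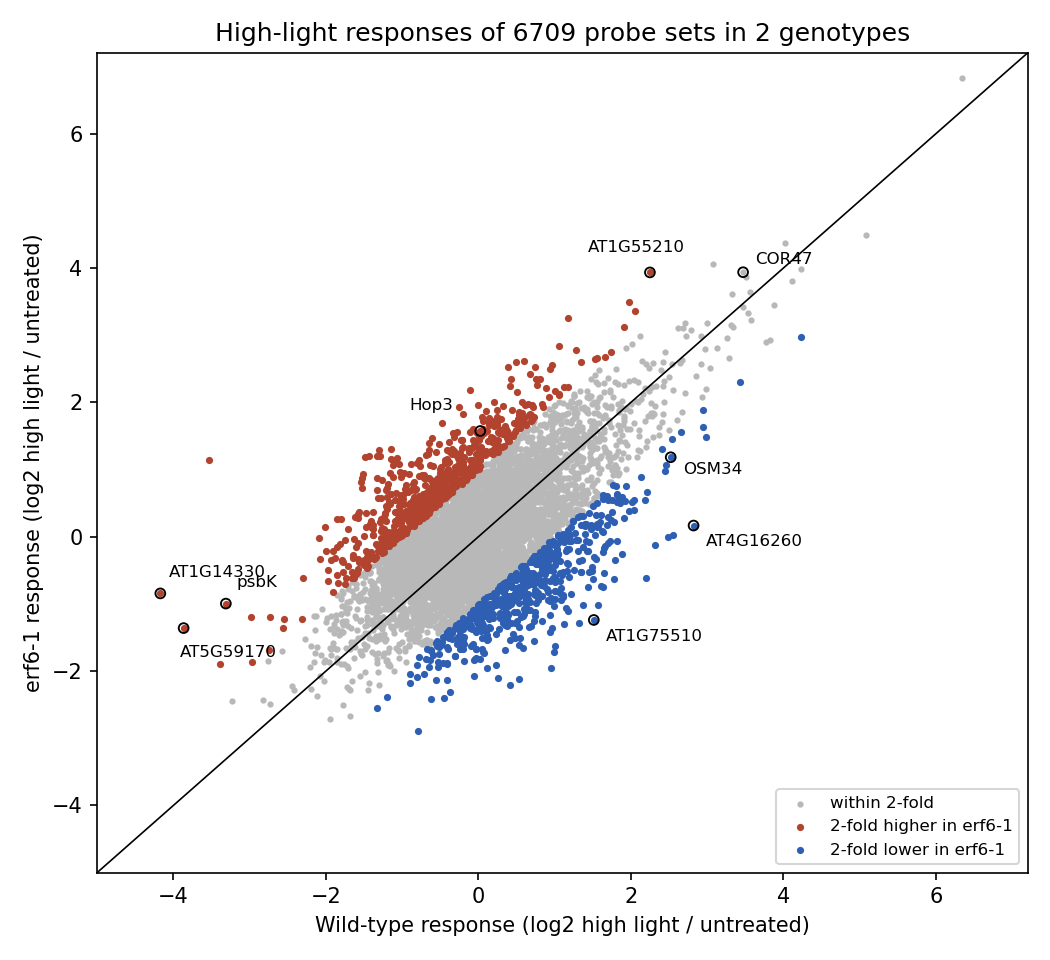
High-light responses of 6709 probe sets: the x axis is the wild-type response and the y axis the erf6-1 response, each as log2 of high light over untreated, and 1 point is 1 probe set from 1 array per group. Red points lie at least 2-fold above the diagonal of equal responses (629) and blue points at least 2-fold below it (577); circled genes are named, among them COR47 close to the diagonal and AT4G16260 far to the right of it.

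Most of these probe sets were past 2-fold in 1 genotype or in neither. Of the 629 with the higher response in erf6-1, 199 were 2-fold higher after light in erf6-1 and within 2-fold in the wild type, 166 were 2-fold lower in the wild type and within 2-fold in erf6-1, and 226 were within 2-fold in both genotypes. Of the 577 with the lower response in erf6-1, 214 were 2-fold lower in erf6-1 and within 2-fold in the wild type, 141 were 2-fold higher in the wild type and within 2-fold in erf6-1, and 203 were within 2-fold in both. Past 2-fold in opposite directions were 12 and 7 probe sets. Over all 6709 probe sets, 870 were 2-fold higher after light in erf6-1 (13.0%) against 720 in the wild type (10.7%), and 661 were 2-fold lower in erf6-1 (9.85%) against 642 in the wild type (9.57%). Of these, 389 were higher in both genotypes and 212 lower in both.

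The size of the difference went with the signal. Among probe sets whose lowest signal was between 250 and 500, 13.4% were 2-fold higher and 15.6% were 2-fold lower. Among those with 1000 or more on all 4 arrays (1977 probe sets), 90 were higher (4.55%) and 17 lower (0.860%). The median difference was -0.05 in the class from 250 to 500 and 0.17 at 1000 or more. The SD of the difference across probe sets was 0.92 in the dimmest class and 0.42 in the brightest, of 5000 or more. A difference of 2-fold therefore stood further outside the spread between probe sets in bright genes than in dim ones. For orientation, the 3 probe sets just above the minimum of 250 had differences of 1.30, 0.02 and -1.62, and the 3 just below it -1.04, -0.70 and 0.74.

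**Figure D2:**
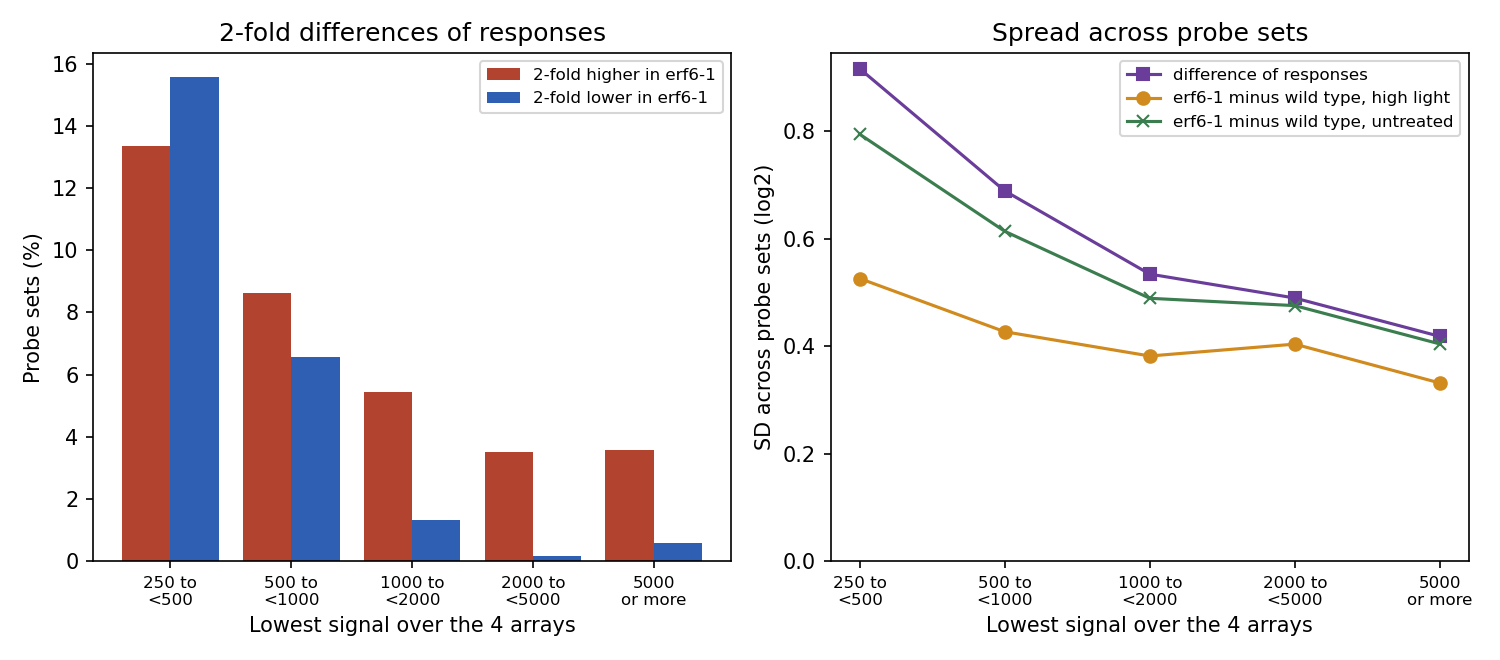
The left panel gives the percent of probe sets 2-fold higher (red) or lower (blue) in the difference of responses, by the lowest signal over the 4 arrays. The right panel gives the SD across probe sets of that difference and of the erf6-1 minus wild-type difference in high light and untreated (log2); in every class the untreated SD exceeds the high-light SD, and the SDs in the dimmest class are larger than those in the brightest.

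By its arithmetic the difference of responses equals the erf6-1 minus wild-type difference in high light minus the same difference without treatment, so each value can be split over the 2 pairs of arrays. Most values rested on the untreated pair. Among the 629 higher probe sets the untreated difference was the larger in size for 486 (77.3%), with a median of 0.41 in high light against -0.95 untreated. Among the 577 lower ones it was the larger for 454 (78.7%), with a median of -0.38 in high light against 1.02 untreated. Over all 6709 probe sets, erf6-1 was 2-fold apart from the wild type at 213 in high light (3.17%) and at 897 untreated (13.4%). By this count the 2 genotypes were nearer to each other after high light than without it. With 1 array per group, the untreated plants and the untreated arrays cannot be told apart.

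**Figure D3:**
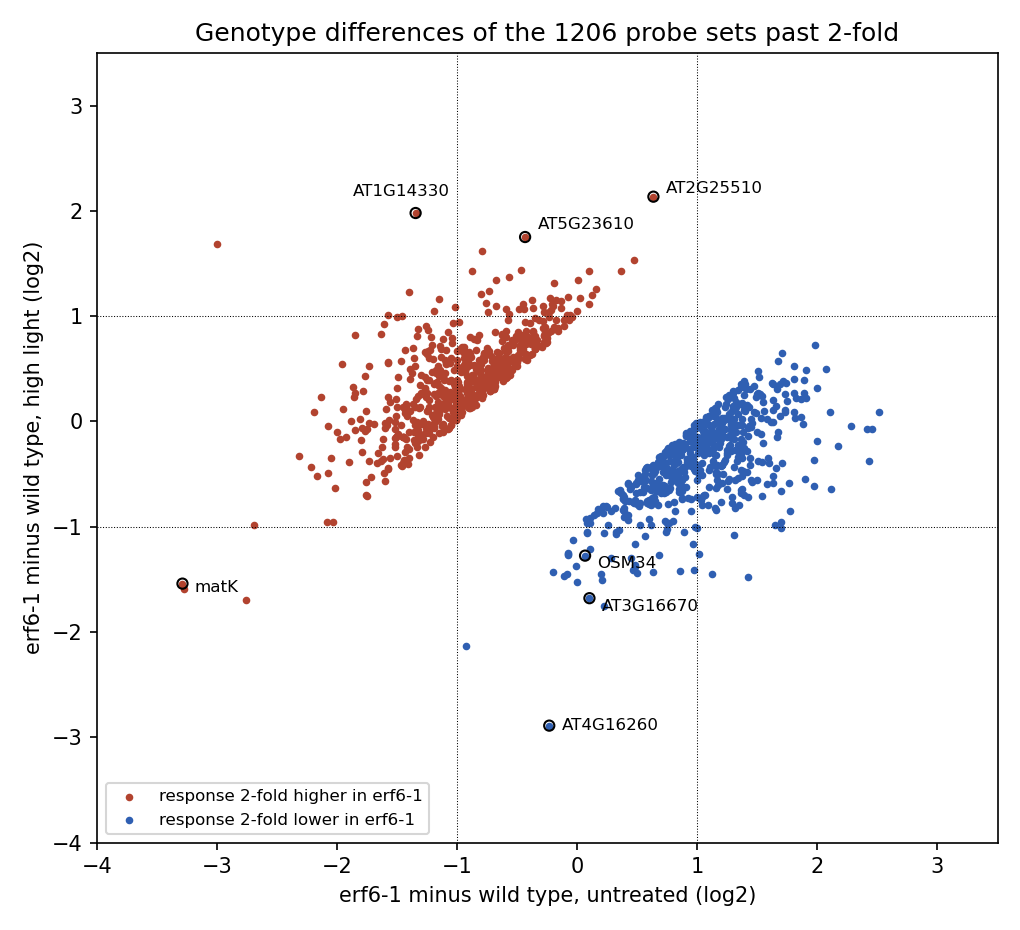
The 1206 probe sets with a difference of responses past 2-fold, placed by the erf6-1 minus wild-type difference untreated (x axis, log2) and in high light (y axis, log2). Red points have the higher response in erf6-1 and blue points the lower; most lie further from 0 along the x axis than along the y axis, while AT4G16260, AT3G16670 and OSM34 lie apart along the y axis.

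Among named genes the response was highest in erf6-1, relative to the wild type, at AT1G14330. Its signal was 2101 in high light and 3771 untreated in erf6-1, against 532.5 in high light and 9596 untreated in the wild type. The signal was lower after light in both genotypes, by less in erf6-1, with log2 responses of -0.84 for erf6-1 and -4.17 for the wild type and a difference of 3.33. AT5G59170 had the same pattern, at 561 in high light and 1439.9 untreated in erf6-1, against 385 in high light and 5617 untreated in the wild type, a difference of 2.51. So did psbK, a plastid gene for a small subunit of photosystem II, at 9162 in high light and 18272 untreated in erf6-1, against 4088 in high light and 40611 untreated in the wild type, a difference of 2.32. In these 3 genes light went with less signal in both genotypes.

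The other 9 of the 12 highest genes had differences between 2.12 and 2.54. SEC15B, a subunit of the exocyst, which tethers secretory vesicles to the plasma membrane, had 571 in high light and 253.5 untreated in erf6-1, against 277 in high light and 581 untreated in the wild type. Its responses were of opposite direction, at 1.17 for erf6-1 and -1.07 for the wild type. MAMI, recorded as a membrane-associated mannitol-induced protein, had 989 in high light and 259 untreated in erf6-1, against 791 in high light and 946.5 untreated in the wild type. Here 1 array stood apart: untreated erf6-1 was low and the other 3 lay close together. In 11 of the 12 genes the wild type was 2-fold lower after light, and in 7 of the 12 erf6-1 was 2-fold higher. The untreated difference was the larger in 9 of the 12.

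At the other end stood AT1G75510, with 516 in high light and 1219 untreated in erf6-1, against 804 in high light and 282 untreated in the wild type. Its signal was lower after light in erf6-1 and higher in the wild type, with responses of -1.24 for erf6-1 and 1.51 for the wild type and a difference of -2.75. AT3G11490 followed at -2.71, with 266.5 in high light and 878.5 untreated in erf6-1, against 539 in high light and 271 untreated in the wild type. Both had their highest signal on the untreated erf6-1 array. AT4G13720, AT3G20680, AT5G65900 and AT1G53290 shared that order, with 999, 1127, 1109 and 1004 in untreated erf6-1 and at most 713 on any other array.

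AT4G16260, listed here among pathogenesis-related genes as a β-1,3-glucanase, had another pattern. It had 553 in high light and 493 untreated in erf6-1, against 4099.7 in high light and 580.2 untreated in the wild type. The high-light wild-type array stood alone, and the other 3 lay within 1.18-fold of each other. The response was 0.17 for erf6-1 and 2.82 for the wild type, and the genotype difference was -2.89 in high light and -0.23 untreated. AT4G25370 was different again, with 924 in high light and 1008 untreated in erf6-1, against 1348 in high light and 271 untreated in the wild type. There the untreated wild type alone was low. The lower end of the 12 lay at AT3G12370, with a difference of -2.27. None of the 12 lowest had a gene symbol in the annotation, against 3 of the 12 highest.

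**Figure D4:**
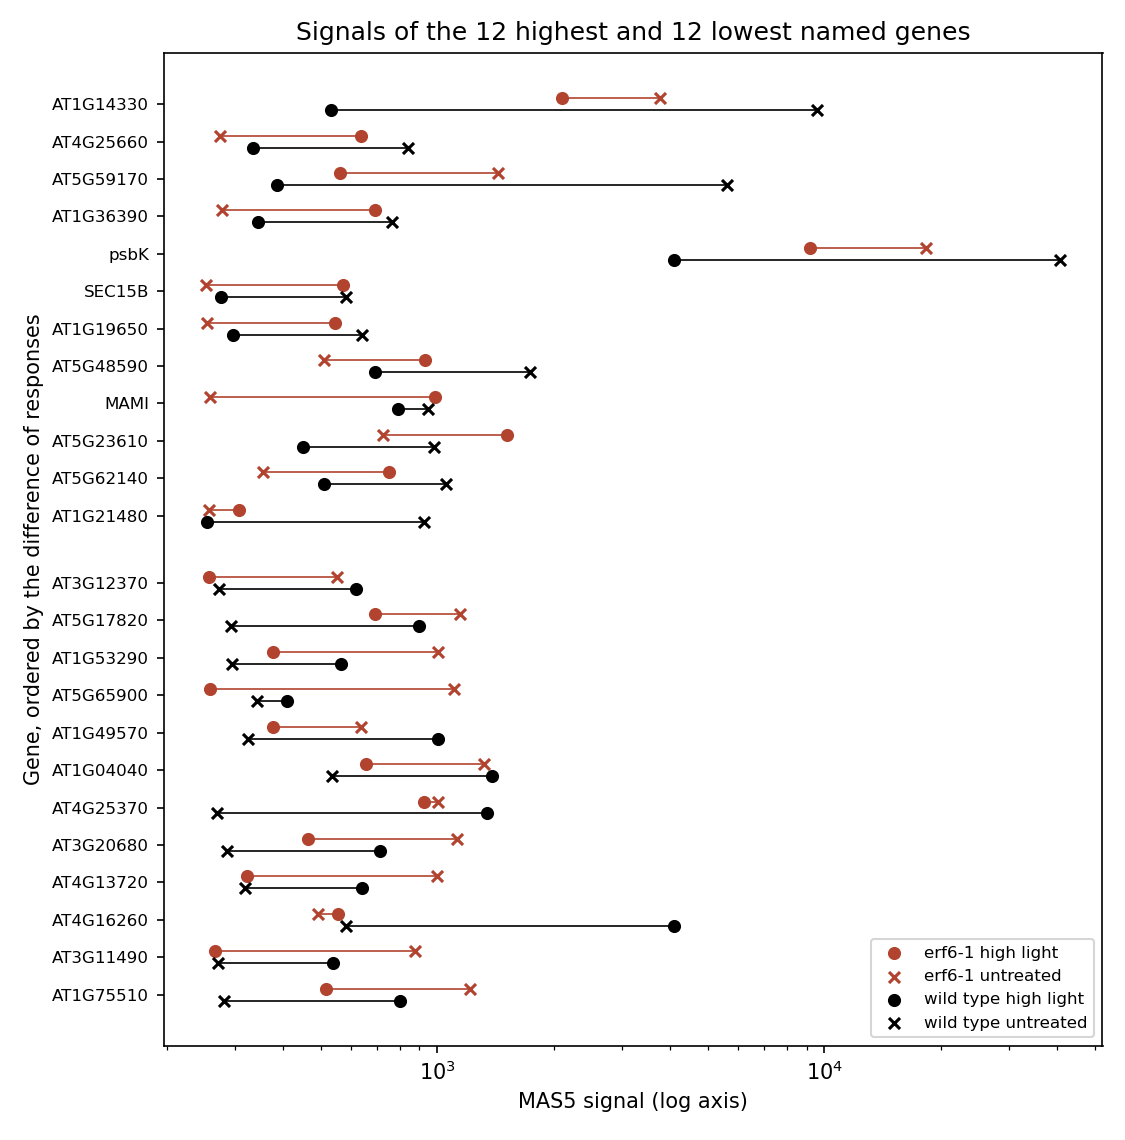
Signals on a log axis for the 12 named genes with the highest difference of responses (top) and the 12 with the lowest (bottom). Each gene has a red line for erf6-1 above a black line for the wild type, running between the untreated array (cross) and the high-light array (dot), 1 array each. In AT4G16260 the black dot lies far right of the other 3 marks, and in psbK the black line is longer than the red one.

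Genes with a signal of 1000 or more on all arrays were less scattered and are given apart. Of 856 named probe sets in this class, 48 were 2-fold higher (5.61%) and 9 were 2-fold lower (1.05%). After psbK, the highest were matK, a plastid gene for an intron maturase, at 1.75, AT5G45950 at 1.65 and AT1G60000 at 1.62. Under quantile normalisation matK had 0.92. AT5G45950 had 6829.5 in high light and 2529 untreated in erf6-1, against 4504 in high light and 5237 untreated in the wild type. Light went with more signal in erf6-1 and with a little less in the wild type.

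Hop3 is a co-chaperone that links Hsp70 and Hsp90. It had 3938 in high light and 1323 untreated in erf6-1, against 3033 in high light and 2983 untreated in the wild type, with responses of 1.57 for erf6-1 and 0.02 for the wild type and a difference of 1.55. AT3G07350 gave nearly the same picture, with 3042 in high light and 1002 untreated in erf6-1, against 1966 in high light and 1885 untreated in the wild type. In both genes the high-light signals of the genotypes lay closer together than the untreated signals, of which erf6-1 had the lower.

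The lowest bright genes were AT1G25275 at -1.37, UBC29 at -1.35 and OSM34 at -1.34. AT1G25275 had 1915 in high light and 1641 untreated in erf6-1, against 3962 in high light and 1316 untreated in the wild type. UBC29, a ubiquitin-conjugating enzyme, had 1022 in high light and 1907 untreated in erf6-1, against 1568 in high light and 1149 untreated in the wild type. OSM34, an osmotin-like protein of the thaumatin family of pathogenesis-related proteins, had 2910.2 in high light and 1282 untreated in erf6-1, against 7039.9 in high light and 1226 untreated in the wild type. In OSM34 the untreated signals were close to each other, and both genotypes were higher after light, the wild type by more.

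AT3G49910 was far brighter, with 14338 in high light and 28367 untreated in erf6-1, against 24619 in high light and 20055 untreated in the wild type, a difference of -1.28. Among the 8 lowest bright genes the untreated difference was the larger in 4, against 6 of the 8 highest.

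Because so many values rested on the untreated pair, another class of named genes was formed after the values had been seen. Its members were past 2-fold in the difference and 2-fold apart between genotypes in high light but not without treatment. Untreated they could be close to 2-fold apart, as the plastid gene atpF was at -0.92. The response in erf6-1 was lower in 24 of them, among 320 named probe sets 2-fold lower. It was higher in 23, among 334 named probe sets 2-fold higher. With unnamed probe sets counted, these were 40 of 577 and 42 of 629. OSM34 and AT4G16260 were in the lower group. With them stood AT3G16670, at 549.5 in high light and 1928.5 untreated in erf6-1, against 1759 in high light and 1798 untreated in the wild type: erf6-1 in high light was low and the other 3 arrays were level. AT4G15390 had 465 in high light and 538 untreated in erf6-1, against 1341 in high light and 541 untreated in the wild type. FAC1, an AMP deaminase, had 361 in high light and 644 untreated in erf6-1, against 857.5 in high light and 680.2 untreated in the wild type, and its difference of -1.17 was within 2-fold under each of quantile normalisation, equal medians and an added constant of 100.

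Also in this group were 3 class III peroxidases, secreted haem enzymes that act in cell walls and produce or consume hydrogen peroxide. AT1G49570 had 377 in high light and 634.5 untreated in erf6-1, against 1005 in high light and 324 untreated in the wild type. AT4G26010 had 547 in high light and 694 untreated in erf6-1, against 1228 in high light and 357 untreated in the wild type. AT2G37130 had 908 in high light and 1034 untreated in erf6-1, against 1861 in high light and 815 untreated in the wild type. In each, the high-light wild type was the brightest of the 4 arrays. Untreated, erf6-1 was above the wild type by 0.97 in AT1G49570, 0.96 in AT4G26010 and 0.34 in AT2G37130. The untreated pair of arrays thus also entered these differences, and in AT1G49570 and AT4G26010 it was just within 2-fold.

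Of the genes higher in erf6-1 in high light, AT2G25510 was the brightest. It had 14238 in high light and 12298 untreated in erf6-1, against 3241 in high light and 7927 untreated in the wild type, so that the genotypes differed by 2.14 in high light and 0.63 untreated. The response was 0.21 for erf6-1 and -1.29 for the wild type. AT5G23610 had 1518 in high light and 725 untreated in erf6-1, against 451 in high light and 979.9 untreated in the wild type, and its responses were past 2-fold in opposite directions.

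LYC encodes lycopene cyclase, an enzyme of carotenoid synthesis. It had 1298.5 in high light and 898 untreated in erf6-1, against 633 in high light and 1089 untreated in the wild type. FIS1B, a protein of organelle fission, had 704 in high light and 583 untreated in erf6-1, against 316 in high light and 658 untreated in the wild type. In both genes the untreated signals were close, and light went with a higher signal in erf6-1 and a lower one in the wild type, which left differences of 1.31 and 1.33.

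Past 2-fold in opposite directions were 11 named genes. AT1G75510, AT3G20680, AT1G04040, AT3G12370 and AT3G56130 were higher after light in the wild type and lower in erf6-1. AT3G56130 had 707 in high light and 1471 untreated in erf6-1, against 1060.2 in high light and 476 untreated in the wild type. AT1G04040 had 655 in high light and 1320.4 untreated in erf6-1, against 1385 in high light and 536 untreated in the wild type. In both, high-light erf6-1 and untreated wild type had the low signals.

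The reverse held for AT4G25660, AT1G36390, SEC15B, AT1G19650, AT5G23610 and AT5G62140. AT4G25660 had 634 in high light and 275 untreated in erf6-1, against 334.5 in high light and 843 untreated in the wild type. AT1G36390 had 689 in high light and 278 untreated in erf6-1, against 344 in high light and 763 untreated in the wild type. Except for AT5G23610, at 1518 in high-light erf6-1, the highest signal in these 6 genes was 1055, in AT5G62140.

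Plastid-encoded genes were the largest group measured. The plastid genome encodes core subunits of both photosystems, of the cytochrome b6f complex, of ATP synthase and of the NDH complex, with rbcL, ribosomal proteins and an RNA polymerase. Probe sets named 69 plastid genes, of which 48 were measured. The difference was positive in 40 of the 48, with a median of 0.55 against 0.07 over all probe sets. It was 2-fold higher in 10 genes (20.8%, against 9.38% of all probe sets) and 2-fold lower in 1 (2.08%, against 8.60%). These shares and medians over all probe sets change with signal. At a minimum of 500, 41 plastid genes were measured, of which 7 were higher and none lower. Over all probe sets at that minimum, 6.58% were higher and 3.71% lower. The plastid median there was 0.54, against 0.12 over all probe sets.

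The plastid signal was lower after light in both genotypes, by more in the wild type. Their median response to light was -0.82 for erf6-1 and -1.47 for the wild type. In erf6-1 17 of the 48 genes were 2-fold lower, against 9.85% of all probe sets. In the wild type 34 were, against 9.57% of all probe sets. The genotype difference had a median of -0.16 in high light and -0.80 untreated. The plastid median remained positive under quantile normalisation, at 0.34 with 33 of 48 positive, and was 0.76 with equal medians.

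Among photosystem II genes 11 of 13 were positive as deposited, with a median of 0.61. psbI, for a small core subunit, had 9596 in high light and 35859 untreated in erf6-1, against 8729 in high light and 91617 untreated in the wild type. psbB, for the antenna protein CP47, had 479 in high light and 519 untreated in erf6-1, against 949 in high light and 3351 untreated in the wild type. psbM, for another small subunit and the brightest gene of the set, had 24927 in high light and 135339 untreated in erf6-1, against 42293 in high light and 397178 untreated in the wild type, a difference of 0.79 that was -0.60 under quantile normalisation.

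Photosystem II also held exceptions. psbC, for the antenna protein CP43, had 1809.9 in high light and 1379 untreated in erf6-1, against 4809 in high light and 2758 untreated in the wild type, a response of 0.39 for erf6-1 and 0.80 for the wild type. psbA, for the reaction centre protein D1, had 2064 in high light and 7514 untreated in erf6-1, against 11899.9 in high light and 52917 untreated in the wild type. The psbA signal was about equally lower with light in both genotypes, with responses of -1.86 for erf6-1 and -2.15 for the wild type, a difference of 0.29 that was -0.44 under quantile normalisation, although erf6-1 lay below the wild type on both arrays.

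As deposited, all 4 photosystem I genes and all 3 cytochrome b6f genes had positive values, with medians of 0.89 and 0.85. Under quantile normalisation the 2-fold values of psaI at 1.07 and petL at 1.04 were 0.61 and 0.74. psaJ had 10736 in high light and 38776 untreated in erf6-1, against 39409 in high light and 266189 untreated in the wild type, a difference of 0.90 that was -0.55 under quantile normalisation. petA, for cytochrome f, had 7548 in high light and 13189 untreated in erf6-1, against 5586 in high light and 17637 untreated in the wild type. In both genes the untreated wild type was the highest array.

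rbcL, for the large subunit of Rubisco, had 512.5 in high light and 739 untreated in erf6-1, against 991 in high light and 3135 untreated in the wild type, a difference of 1.13. Of 6 NDH genes 5 were positive, with a median of 0.20, while ndhD and ndhI were also negative under quantile normalisation, at -0.16 and -0.12. ndhE had 354 in high light and 539.9 untreated in erf6-1, against 1066 in high light and 5237 untreated in the wild type, a difference of 1.69, whereas ndhI had 20573 in high light and 65795 untreated in erf6-1, against 17739.7 in high light and 57009 untreated in the wild type, a difference of 0.01.

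Of 9 ribosomal protein genes 5 were positive. rps19 had 5769 in high light and 5089.8 untreated in erf6-1, against 2142 in high light and 3964 untreated in the wild type, and its difference of 1.07 was 0.89 under quantile normalisation. atpF, for a subunit of ATP synthase, was the 1 plastid gene that was 2-fold lower. It had 256.5 in high light and 1495 untreated in erf6-1, against 1126.5 in high light and 2838 untreated in the wild type, a difference of -1.21, which was -0.90 with an added constant of 100. The other 4 ATP synthase genes lay between 0.44 and 0.70, but under quantile normalisation atpA had -0.07 and atpE -0.16.

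Nuclear genes of photosynthesis went the same way as deposited. All 11 measured genes of the 63 listed had positive differences, with a median of 0.36 against 0.07 over all probe sets. Under quantile normalisation, however, 5 of 11 were positive and the median was -0.02, against 0.03 over all probe sets. In 2 of the 11 genes the difference was 2-fold higher and in none 2-fold lower, against 9.38% and 8.60% of all probe sets. These shares change with signal, and all of the 11 except the antenna gene LHCB4.3 had 5000 or more on all 4 arrays. Over all probe sets of that class, 3.57% were higher and 0.595% lower. The median of that class was 0.18, with quartiles at -0.06 and 0.48. PSBW, for a small subunit of photosystem II, had 17963.5 in high light and 46246.5 untreated in erf6-1, against 10835 in high light and 64266 untreated in the wild type, a difference of 1.20. PSAE-1, a stromal subunit of photosystem I, had 30581 in high light and 31844 untreated in erf6-1, against 24088 in high light and 54415 untreated in the wild type, a difference of 1.12, which was 0.79 under quantile normalisation.

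The antenna proteins LHCB4.1, LHCB4.2 and LHCB4.3 had 0.68, 0.62 and 0.26, and LHCB4.3 was at -0.06 under quantile normalisation. LHCB4.2 had 10675 in high light and 15160.2 untreated in erf6-1, against 9914 in high light and 21587 untreated in the wild type. PRK, the phosphoribulokinase of the Calvin cycle, had 9713 in high light and 5583 untreated in erf6-1, against 8621 in high light and 8742 untreated in the wild type, while SBPASE of the same cycle had a difference of 0.18. In LHCB4.2 and PRK the genotypes were closer in high light than untreated.

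Outside the fixed lists, PORB, which makes chlorophyllide in the light, had 507 in high light and 336 untreated in erf6-1, against 682 in high light and 1569 untreated in the wild type, a difference of 1.79. It was chosen after its values were seen.

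Of 27 listed heat shock genes 6 were measured, with a median difference of 0.39 that was 0.16 under quantile normalisation. After light, 5 were 2-fold higher in erf6-1 and 4 in the wild type, against 13.0% and 10.7% of all probe sets. The difference was 2-fold higher in 1 of 6, which was Hop3, against 9.38% of all probe sets. AT1G52560, listed as a small heat shock protein, had 13380.4 in high light and 649 untreated in erf6-1, against 11216 in high light and 694 untreated in the wild type, with responses of 4.37 for erf6-1 and 4.01 for the wild type. AT1G53540, another, had 55781.5 in high light and 10794 untreated in erf6-1, against 52219.9 in high light and 16048 untreated in the wild type. AT5G37670, listed likewise, had 13636 in high light and 4471 untreated in erf6-1, against 10809 in high light and 2728 untreated in the wild type, with responses of 1.61 for erf6-1 and 1.99 for the wild type. The high-light signals of the 4 listed small heat shock proteins were higher in erf6-1 than in the wild type by 0.10 to 0.34, with AT5G51440 at 0.21.

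Of 76 named genes with at least 4-fold more signal after light in 1 or both genotypes, 21 passed 4-fold in both. These 21 were chosen by both responses, which enter the difference, so the spread of their differences depends on that choice. Their differences ran from -0.91 to 1.69 with a median of -0.04. Of these, 1 was past 2-fold, against 18.0% of all probe sets. That gene was AT1G55210, with 4089 in high light and 267.5 untreated in erf6-1, against 4340.4 in high light and 913 untreated in the wild type, a difference that came from the untreated pair at -1.77. COR47, a dehydrin of cold and drought, had 36677.5 in high light and 2395 untreated in erf6-1, against 31961 in high light and 2883 untreated in the wild type. ALDH7B4, an aldehyde dehydrogenase of stress responses, had 15612 in high light and 1276.5 untreated in erf6-1, against 14659 in high light and 1461 untreated in the wild type. Both responses to light were large, and their differences between genotypes were 0.47 and 0.29. Among all 76 genes, which were chosen by a response that enters the difference, 12 were 2-fold higher in the difference and 11 lower, against 9.38% and 8.60% of all probe sets.

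LTI30, another dehydrin, had 11060.5 in high light and 2416 untreated in erf6-1, against 9578 in high light and 1208 untreated in the wild type, a difference of -0.79. The oxidative stress markers measured were 3 of 21 listed. AT2G21640 had 1478 in high light and 314 untreated in erf6-1, against 1445 in high light and 299 untreated in the wild type. STZ, a zinc finger repressor of stress responses, had 1589 in high light and 411 untreated in erf6-1, against 2056 in high light and 413.5 untreated in the wild type. GSTU25 had a difference of -0.19, so none of the 3 was 2-fold apart, against 18.0% of all probe sets. All 3 were between -0.36 and -0.04.

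Of 33 listed antioxidant enzymes 7 were measured, with a median of 0.21 against 0.07 over all probe sets. At a minimum of 500 the median was 0.06 over 6 genes, against 0.12 over all probe sets. None of the 7 was 2-fold apart, against 18.0% of all probe sets, and the values ran from -0.71 to 0.76. GR1, the cytosolic glutathione reductase, had 4794 in high light and 2336 untreated in erf6-1, against 5202 in high light and 1555 untreated in the wild type. The plastid glutathione reductase GR had 1383 in high light and 1515 untreated in erf6-1, against 1281 in high light and 2337 untreated in the wild type, a difference of 0.74. SAPX and TAPX, the stromal and thylakoid ascorbate peroxidases, had 0.76 and 0.49. ATMDAR2, a monodehydroascorbate reductase, was about 4-fold higher after light in both genotypes, with responses of 2.00 for erf6-1 and 2.09 for the wild type.

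Glutathione transferases, which join glutathione to reactive compounds, had a median of 0.69 over 7 measured genes, which was 0.40 with 4 of 7 positive under quantile normalisation. The difference was 2-fold higher in 1 of 7, against 9.38% of all probe sets. That gene was GSTU16, with 2158 in high light and 892 untreated in erf6-1, against 1468 in high light and 1373 untreated in the wild type, a difference of 1.18. GSTU26, at 0.91, and GSTU27, at 0.86, were next. GSTU20 and GSTU25 were lower, at -0.26 and -0.19.

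AT5G16990, listed with carbonyl detoxification, had 1004 in high light and 660.1 untreated in erf6-1, against 1210.2 in high light and 375 untreated in the wild type. Its difference of -1.08 was within 2-fold with equal medians, at -0.87, and with an added constant of 100, at -0.92.

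Autophagy genes here were those of the ATG8 family, small ubiquitin-like proteins bound to the membrane of the autophagosome. Of 12 listed, 8 were measured, and 5 of 8 were positive with a median of 0.41. None of the 8 was 2-fold apart, against 18.0% of all probe sets. APG8H had 3809 in high light and 1385 untreated in erf6-1, against 2599.9 in high light and 1663 untreated in the wild type. ATG8F had 4697 in high light and 2239 untreated in erf6-1, against 4167 in high light and 3150.5 untreated in the wild type. APG8A had 3821 in high light and 1670.2 untreated in erf6-1, against 2293 in high light and 1471 untreated in the wild type. In erf6-1, 4 of the 8 were 2-fold higher after light, against 1 of the 8 in the wild type, which was ATG8B; over all probe sets these shares were 13.0% in erf6-1 and 10.7% in the wild type. Members of the family can share sequence, and how far their probe sets are specific was not tested.

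The class III peroxidases named above belong to a list of 73 genes added after their values had been seen. Of 55 with a named probe set, 14 were measured, of which 5 were 2-fold lower and 1 was 2-fold higher, against 8.60% and 9.38% of all probe sets. The difference was negative in 12 of 14, with a median of -0.54 against 0.07 over all probe sets. The root markers EXPA7 and EXPA18, each under 250 on at least 1 array, also had negative differences. PYK10, the 1 measured root marker, had a positive difference of 0.63. The part of root tissue in the result was not tested. AT5G17820 had 693 in high light and 1148 untreated in erf6-1, against 895 in high light and 293 untreated in the wild type. AT4G30170 had 547 in high light and 651 untreated in erf6-1, against 965 in high light and 262 untreated in the wild type. In both the untreated wild type was the lowest array, so that the untreated pair gave most of their differences of -2.34 and -2.13.

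The brightest peroxidase was PRXR1, with 6594 in high light and 5174.5 untreated in erf6-1, against 9760.0 in high light and 5688 untreated in the wild type, a difference of -0.43. The gene higher in erf6-1 was AT1G71695, at 1.45, with 1129 in high light and 305 untreated in erf6-1, against 1269.5 in high light and 937.5 untreated in the wild type. Of the 14 genes, 5 had 500 or more on all arrays, and of these 1 was 2-fold lower and none higher, with a median of -0.43. Over all probe sets at that minimum, 3.71% were lower and 6.58% higher, with a median of 0.12.

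Of 23 genes listed for salicylic acid and pathogenesis, 5 had a named probe set and 2 were measured, AT4G16260 and OSM34. Both were 2-fold lower in the difference, against 8.60% of all probe sets. Both also stood in the class that rested on the high-light pair. Of the genes listed for ethylene and jasmonate, EIN3, a transcription factor of ethylene signalling, was measured alone of 34, with 843.5 in high light and 515 untreated in erf6-1, against 688 in high light and 585 untreated in the wild type, a difference of 0.48. WES1, an auxin-conjugating enzyme, had responses of -1.66 for erf6-1 and -1.95 for the wild type. No gene of the clock or iron lists was measured. The ethylene response factor family matched no named probe set, so its signals were not examined. Of the WRKY transcription factors, ZAP1 had 483 in high light and 483 untreated in erf6-1, against 583.5 in high light and 265 untreated in the wild type, a difference of -1.14 that was within 2-fold under quantile normalisation, equal medians and an added constant of 100.

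UDP-glycosyltransferases, which attach sugars to small molecules, were centred on 0. Of 12 measured, 6 were positive, with a median of 0.00 that was -0.03 under quantile normalisation. In the difference 1 was 2-fold higher and 1 lower, against 9.38% and 8.60% of all probe sets. GT72B1 had 1785 in high light and 1219 untreated in erf6-1, against 2138 in high light and 469 untreated in the wild type, a difference of -1.64. UGT74B1, which acts in glucosinolate synthesis, had 2301 in high light and 995 untreated in erf6-1, against 1819 in high light and 1714 untreated in the wild type, a difference of 1.12. UGT76E11 had responses of 1.46 for erf6-1 and 1.43 for the wild type, nearly equal, although erf6-1 lay above the wild type by 1.14 in high light and 1.11 untreated.

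None of 5 cytochrome P450 genes, 5 tubulins and 5 expansins was 2-fold apart, against 18.0% of all probe sets. Their medians were 0.29, 0.25 and 0.05. CYP71B26 had the largest value of the P450 genes, at 0.85, and TUB6 of the tubulins, at 0.99. Both were past 2-fold under quantile normalisation. Of the unfolded protein response genes, CRT1b, a calreticulin, had 1572 in high light and 3779 untreated in erf6-1, against 1972 in high light and 2616 untreated in the wild type, a difference of -0.86. BZIP60, a transcription factor of that response, had 1398 in high light and 752.5 untreated in erf6-1, against 1326 in high light and 1151 untreated in the wild type, a difference of 0.69. In the flavonoid list DFR, dihydroflavonol reductase, had -0.82 and UGT78D1 had 0.28.

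Of 19 reference genes for expression assays 3 were measured. GAPC2 had -0.12, AT5G46630 had -0.10 and AT4G34270 had 0.13. Under quantile normalisation GAPC2 had -0.52 and AT4G34270 had 0.35, so these values depended on the scaling.

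**Figure D5:**
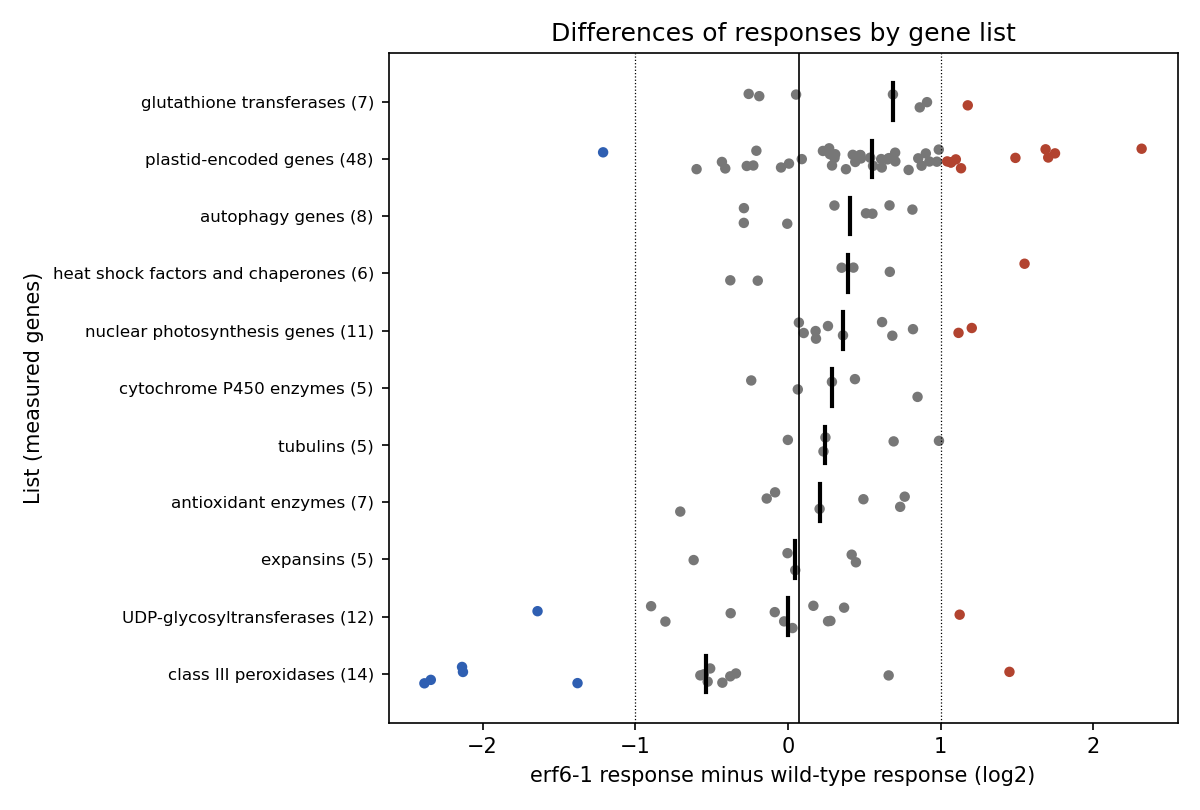
The erf6-1 response minus the wild-type response (log2) for each measured gene of the lists and families with at least 5 measured members; 1 point is 1 gene and the black bar is the list's median. The solid line is the median over all 6709 probe sets, 0.07, and dotted lines mark 2-fold; plastid-encoded genes lie mostly right of the solid line and class III peroxidases mostly left of it.

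Only 571 of the 3373 measured genes had a symbol other than the locus. The following are the genes with a symbol at each end, chosen after their values were seen. On the lower side, LSM1B, of mRNA decapping, had 355 in high light and 1335 untreated in erf6-1, against 616 in high light and 524.5 untreated in the wild type, and NRPB7, a subunit of RNA polymerase II, had 346 in high light and 872 untreated in erf6-1, against 515 in high light and 318 untreated in the wild type. CCT1, of phosphatidylcholine synthesis, had -1.99, and the SNARE protein YKT61 had -1.79. FER, the receptor kinase FERONIA, had 397 in high light and 607.5 untreated in erf6-1, against 784 in high light and 397.5 untreated in the wild type, a difference of -1.59. In LSM1B and NRPB7 the untreated erf6-1 array was the highest of the 4.

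On the higher side was a second exocyst subunit, SEC10, with 504 in high light and 344 untreated in erf6-1, against 344 in high light and 733 untreated in the wild type, a difference of 1.64. HTB2, a histone H2B, had 808 in high light and 900.0 untreated in erf6-1, against 463 in high light and 1670.1 untreated in the wild type. PRP39, a splicing factor, had 1056.5 in high light and 389 untreated in erf6-1, against 1078 in high light and 1256 untreated in the wild type. In HTB2 and SEC10 the untreated wild type was the highest array, and in PRP39 untreated erf6-1 was the lowest.

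Among brighter genes EIF4A-2, an RNA helicase of translation initiation, had 3911 in high light and 2612 untreated in erf6-1, against 5062 in high light and 8698 untreated in the wild type, a difference of 1.36. CCL had 4590.5 in high light and 1547 untreated in erf6-1, against 2578.5 in high light and 2389 untreated in the wild type, a difference of 1.46. THI2.2, a thionin, had 699 in high light and 1606 untreated in erf6-1, against 387 in high light and 2586 untreated in the wild type, a difference of 1.54. OTC, ornithine carbamoyltransferase of arginine synthesis, had a difference of 1.35. In high light, erf6-1 was above the wild type by 0.83 in CCL and by 0.85 in THI2.2, whereas EIF4A-2 differed by -0.37.

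With 1 array per group, how well a value repeats could not be seen. Agreement between probe sets on the same arrays could be seen where a gene had more than 1 measured probe set. There were 5 such genes, and in 3 of them the differences had the same sign. AT2G20740 had -0.97 from one probe set and 0.93 from the other. AT1G23440 had -0.59 and -0.35. AT3G48570, named among the genes that were 2-fold apart in high light, had -1.85 from one probe set and -0.18 from the other, which was the brighter.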

How the data were processed

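4 single-channel Affymetrix arrays of total RNA labelled with biotin were used, 1 for each of 4 groups taken from the sample titles. A description in the records that speaks of embryos is at odds with the seedlings and was not used. The deposited values are linear intensity signals that the authors made with MAS5, per the submitters' processing notes; no version is recorded there. The 2% trimmed means of all 4 arrays lay between 493 and 495.

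Signals under 100 were raised to 100 and put on the log2 scale, and the wild-type response was subtracted from the erf6-1 response. Probe sets with a signal of 250 or more on all 4 arrays entered, so none was at the floor. Of 22746 probe sets, 13513 were listed with 1 gene and 13436 matched a current locus of the RefSeq TAIR10.1 gene table. A value counted as higher or lower at 2-fold. With 1 array per group there was no p-value, standard error or paired test, so precision is limited by how few arrays there are. The probe sets, lists and comparison were chosen with earlier results of these data known. Gene lists numbered 21 (423 genes, 102 with a named probe set, 58 measured), of which 17 had a measured member and 4 had at least 5. Of 18 families formed from gene symbols or the chromosome, 10 had a measured member and 6 had at least 5. Medians are drawn for lists of at least 5. A gene with several probe sets counted once in a list, by their mean.

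Named genes were the 12 highest and 12 lowest differences, the 8 highest and 8 lowest with 1000 or more on all arrays, up to 6 of each kind with opposite 2-fold responses, and up to 4 members per list, or all of lists of 6 or fewer. Added after values were seen were the class III peroxidases, all measured members of the lists described and genes with a symbol at each end. So were genes past 2-fold that were 2-fold apart in high light but not untreated, and genes at least 4-fold higher after light. The planned search of promoter sequences was not made. Alternatives were quantile normalisation, equal medians, a constant of 100 added before the log2, minimum signals of 500, 1000 and none, and leaving out organelle genes. Python 3.11.15, numpy 2.4.6, pandas 2.3.3 and matplotlib 3.10.9 were used, and the calculation was tested on simulated arrays.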

Additional observations from a re-analysis of the deposited data

Results flagged for a closer look

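With 1 array per group no spread within a group could be examined. Responses to high light of at least 2-fold in opposite directions in erf6-1 and the wild type were found in 11 named genes, and this difference between the genotypes was not tested. In 5 genes the signal was lower after light in erf6-1 and higher in the wild type: the difference of responses was -2.75 for AT1G75510, -2.59 for AT3G20680, -2.38 for AT1G04040, -2.27 for AT3G12370 and -2.21 for AT3G56130. In 6 genes it was higher in erf6-1 and lower in the wild type: 2.54 for AT4G25660, 2.46 for AT1G36390, 2.24 for SEC15B, 2.20 for AT1G19650, 2.19 for AT5G23610 and 2.13 for AT5G62140. None of the 11 reached a signal of 1000 on all 4 arrays.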

How the results depend on the processing

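No paired analysis was possible because each group had 1 array. Against 629 probe sets higher and 577 lower as reported, there were 982 and 371 with equal medians, 259 and 146 with a minimum of 500, 90 and 17 with a minimum of 1000, 4217 and 4876 with no minimum (where many values are at the floor), and 334 and 320 among named probe sets. Quantile normalisation gave 773 and 629, an added constant of 100 gave 442 and 406, and leaving out organelle genes gave 619 and 576. The untreated difference was the larger in 88.7% of higher probe sets under quantile normalisation, against 77.3% as reported. The median was -0.0226 for nuclear photosynthesis genes and -0.0316 for UDP-glycosyltransferases under quantile normalisation, against 0.36 and 0.00 as reported. The cause was not tested. The medians of the other 9 lists kept their sign under quantile normalisation, equal medians and the added constant; expansins had no member at a minimum of 500.

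Of 288 named genes, 148 were past 2-fold. Of these, 12 were within 2-fold under quantile normalisation, 12 with equal medians and 16 with the added constant, and none of the 148 changed direction. Among all 288, 28 values had the other sign under quantile normalisation, 21 with equal medians and 4 with the added constant. A further 8 and 14 passed 2-fold under quantile normalisation and equal medians. At signals from 250 to 500 the SD of the difference across probe sets, 0.92, was close to the 2-fold limit of 1. This SD takes in differences between genes as well as error, which cannot be told apart with 1 array per group. Single dim genes carry little weight.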
